A study of Mus musculus with 5 samples.

Results

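St8sia1 encodes GD3 synthase, the sialyltransferase that adds a second sialic acid to the ganglioside GM3, and its transcript was among the more strongly raised in anterior eye tissue of DBA/2J mice relative to DBA/2J mice with a restored Gpnmb gene. St8sia1 was therefore chosen by its rise in this comparison. It is described here with 6 other enzymes of ganglioside metabolism, which were listed for their function: Ugcg, St3gal5, B4galnt1, B3galt4, St8sia5 and Neu3. These 7 genes were found among the 56941 genes of the deposited count table by their symbols. The tissue was the trabecular meshwork region dissected from eyes of mice aged 12 months, and the iris and ciliary body had been removed, with remnants left behind. DBA/2J mice (3 pools) carry a mutant Gpnmb allele with a premature stop and the b allele of Tyrp1, and develop a pigmentary glaucoma. Gpnmb+ mice (DBA/2J-Gpnmb+/SjJ, 2 pools) carry wild-type Gpnmb on the same background and keep the b allele of Tyrp1, so both groups share that allele. Each library was a pool of 3 mice by the protocol, although the Gpnmb+ library names list 2 animals each, so the values are pool averages, and p-values measure the spread between pools.

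Gangliosides are sialic acid-bearing glycosphingolipids of the outer cell membrane, abundant in neurons and neural tissue. They are built stepwise on ceramide, first with glucose by Ugcg, then with galactose, and then with a sialic acid by St3gal5, which gives GM3. St8sia1 turns GM3 into GD3, the start of the b-series, St8sia5 can extend GD3 into the c-series, and B4galnt1 and B3galt4 add N-acetylgalactosamine and galactose to these cores. Neu3 removes sialic acids at the plasma membrane.

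The promoter of St8sia1 is shown because this gene carries the difference between the groups. The RefSeq sequence of the 250 bases before its transcription start was searched for on chromosome 6 of GRCm39 only. It was found there once, at chr6:142910179-142910428 on the minus strand, and overlapped no annotated exon. The capitals mark a CCAAT motif and a GC box (GGGCGG), each found 1 time when both strands were searched for them. The TATA box motif TATAAA was searched in the same way and not found.
St8sia1: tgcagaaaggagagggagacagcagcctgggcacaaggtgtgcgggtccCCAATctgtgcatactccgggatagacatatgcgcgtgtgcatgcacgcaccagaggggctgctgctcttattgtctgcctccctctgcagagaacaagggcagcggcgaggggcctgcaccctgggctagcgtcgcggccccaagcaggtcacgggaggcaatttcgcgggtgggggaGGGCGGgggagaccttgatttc
Its GC content was 63.6%, against a median of 52.4% over 32851 promoters. The CCAAT motif was present in 33.9% of these promoters, the GC box in 32.7% and the TATA box motif in 12.4%. These matches are a description of the sequence and not of bound factors.

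Each library held between 43900661 and 49837758 counted reads. Gpnmb itself stood at 45.9, 52.0 and 43.6 CPM (counts relative to the library total, scaled by the trimmed mean of M-values) in DBA/2J, and both Gpnmb+ pools were far higher, at 2555 and 2260.5 CPM, in the direction that the labels give. Of 19713 genes with at least 10 counts in 1 pool or more, 157 (0.796%) were called changed by edgeR's quasi-likelihood test (Benjamini-Hochberg adjusted p no higher than 0.05, with a fold change of 1.5 or more), 99 (0.502%) higher and 58 (0.294%) lower in DBA/2J. DESeq2's Wald test called 927 (4.70%). With 3 pools against 2, an exact permutation test of a single value cannot go below a two-sided p of 0.2. The study's methods give mice of both sexes in each group, but the values go against this for Gpnmb+: Kdm5d, a Y-linked gene, had 0 counts in both Gpnmb+ pools, beside 753, 992 and 325 in DBA/2J. Xist, transcribed from the inactive X chromosome, stood at 13.4, 0 and 54.2 CPM in DBA/2J, while Gpnmb+ gave 155 and 187 CPM. RNA marking other cell types also differed between the groups and is given beside the St8sia1 values further on.

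St8sia1 (ENSMUSG00000030283, GRCm39 chr6:142767271-142910178, minus strand) was measured at 47.7, 48.6 and 49.3 CPM in DBA/2J, and the Gpnmb+ libraries gave 12.7 and 12.4 CPM. The groups did not overlap, and pools within each group were nearly equal. The mean was 48.5 ± 0.785 CPM (SD, n = 3) in DBA/2J and 12.5 ± 0.243 CPM (SD, n = 2) in Gpnmb+, which is 3.87-fold, or a log2 fold change of 1.95 (SE 0.09). Because this comparison chose the gene, no p-value is given for it. The coefficient of variation between pools was 1.62% in DBA/2J and 1.94% in Gpnmb+, below the 2.16% and 4.00% that counting error alone would give. By log2 fold change St8sia1 ranked 157 of 19713 genes, and 33 of the 13896 genes with a mean log2 CPM of at least 1. In bulk tissue, more cells that express a gene and more RNA per cell cannot be told apart.

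**Figure D1:**
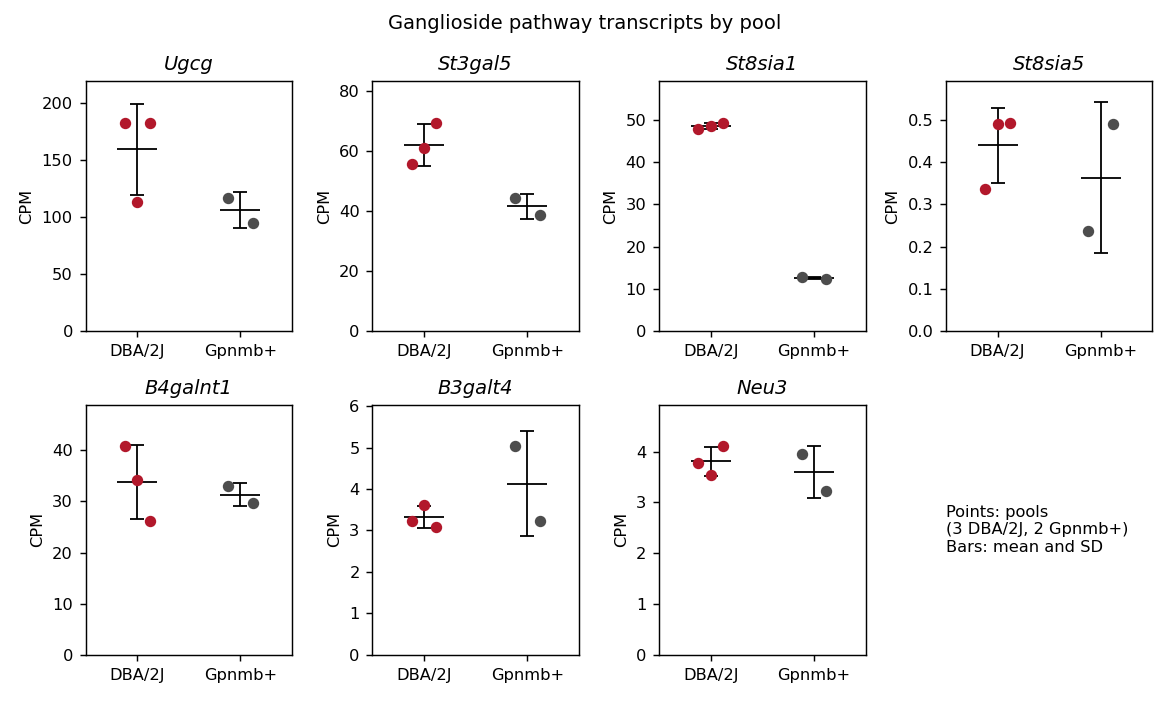
Level of each of the 7 ganglioside enzymes in CPM, 1 panel per gene, with 1 point per pool (DBA/2J, n = 3; Gpnmb+, n = 2) and the mean and SD of each group. The St8sia1 pools lie at 47.7 to 49.3 CPM in DBA/2J and at 12.4 to 12.7 CPM in Gpnmb+, and St3gal5 is the only other enzyme whose groups do not overlap.

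None of the other 6 enzymes was called by edgeR in either direction, against 0.796% of all genes. In DBA/2J 5 of them had a higher and 1 a lower fitted level. The median of their log2 fold changes was 0.19, beside -0.02 over all genes tested. At an unadjusted p under 0.05 there were 2, St3gal5 and Ugcg, against 15.9% of all genes. Only St3gal5 had groups that did not overlap, with every DBA/2J pool higher, which was so for 17.3% of all genes and for 34.5% in either direction.

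The enzymes before St8sia1 in the pathway were the most abundant. Ugcg (ENSMUSG00000028381, chr4:59189035-59222845), glucosylceramide synthase, makes the glucosylceramide from which nearly all gangliosides start. It was measured at 182, 113 and 183 CPM in DBA/2J and at 117 and 94.6 CPM in Gpnmb+. One DBA/2J pool lay below a Gpnmb+ pool, so the groups overlapped. Its log2 fold change was 0.59 (SE 0.23, 95% interval 0.03 to 1.16), with an adjusted p of 0.295 by edgeR's quasi-likelihood test.

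St3gal5 (ENSMUSG00000056091, chr6:72074329-72131556), GM3 synthase, makes the acceptor that St8sia1 uses. It stood at 55.7, 60.9 and 69.4 CPM in DBA/2J and at 44.4 and 38.7 CPM in Gpnmb+, without overlap. The means were 62.0 ± 6.93 (SD, n = 3) and 41.6 ± 4.03 CPM (SD, n = 2). The log2 fold change of 0.58 (SE 0.12, 95% interval 0.27 to 0.88) had an adjusted p of 0.109 by edgeR's quasi-likelihood test. DESeq2's Wald test gave St3gal5 an adjusted p of 0.00347, with a fold change just under the minimum of 1.5, so it was not called there either.

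The enzymes after GM3 and GD3 had intervals on both sides of 0. B4galnt1 (ENSMUSG00000006731, chr10:127000537-127010607), the synthase of GM2 and GD2, was at 40.7, 34.2 and 26.2 CPM in DBA/2J and at 32.9 and 29.7 CPM in Gpnmb+. The Gpnmb+ values lay inside the DBA/2J range, and the log2 fold change was 0.11 (95% interval -0.35 to 0.57, edgeR adjusted p = 0.827). B4galnt1 overlaps Slc26a10 on the opposite strand, a gene with 10 to 22 counts per pool. B3galt4 (ENSMUSG00000067370, chr17:34168881-34170823), which makes GM1 and GD1b, was at 3.24, 3.61 and 3.09 CPM in DBA/2J and at 5.03 and 3.23 CPM in Gpnmb+. It was the 1 enzyme with a lower fitted level in DBA/2J, through a single Gpnmb+ pool, with a log2 fold change of -0.32 (95% interval -0.90 to 0.27, edgeR adjusted p = 0.572).

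St8sia5 (ENSMUSG00000025425, chr18:77272738-77348090), the related sialyltransferase that acts after St8sia1, was barely detected. Its counts were 15, 21 and 22 in DBA/2J, and Gpnmb+ gave 12 and 24. Its log2 fold change of 0.28 had a 95% interval from -0.82 to 1.37 (edgeR adjusted p = 0.813). A 2-fold higher level in DBA/2J lay within this interval, so it could not be told from no difference with these pools and counts. Neu3 (ENSMUSG00000035239, chr7:99459865-99477636), the sialidase, was at 3.78, 3.54 and 4.10 CPM in DBA/2J and at 3.96 and 3.23 CPM in Gpnmb+. These groups overlapped, and the log2 fold change was 0.08 (95% interval -0.37 to 0.54, edgeR adjusted p = 0.868).

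**Figure D2:**
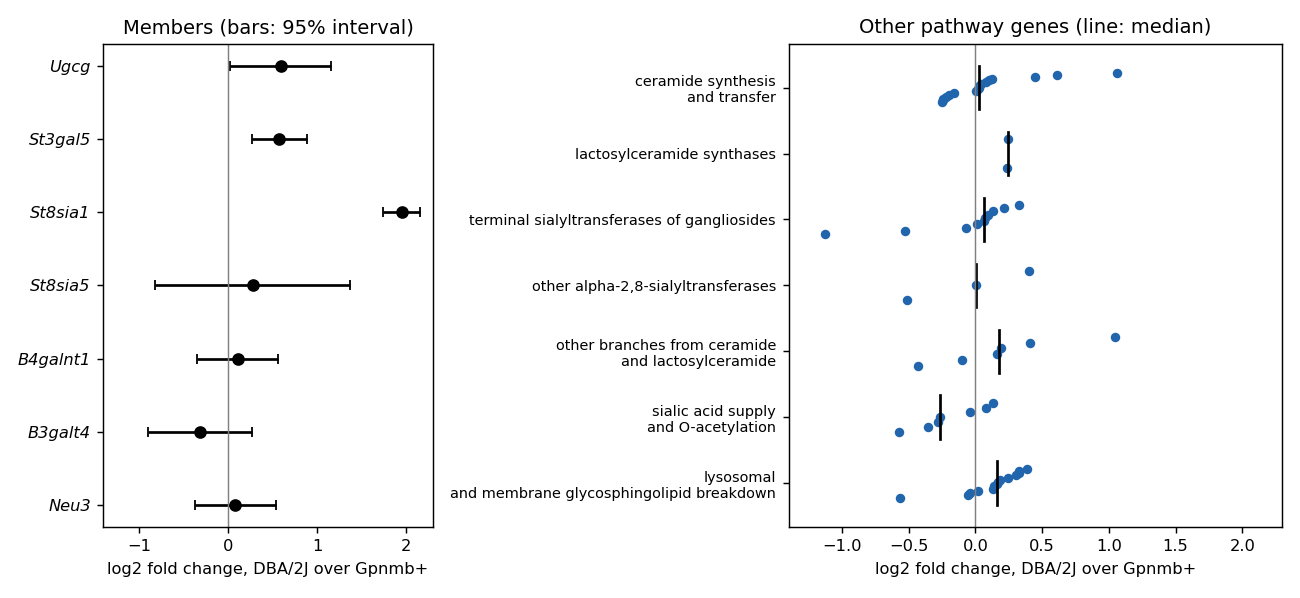
Log2 fold change, DBA/2J over Gpnmb+, from the edgeR fit, for the 7 enzymes with 95% intervals (left) and for 59 further pathway genes by list, with 1 point per gene and a line at each list's median (right). St8sia1 stands at 1.95, and because this comparison chose it, its interval is a description and not a test. The other 6 enzymes lie between -0.32 and 0.59, and the pathway genes lie between -1.13 and 1.06.

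Levels of the 7 enzymes were put in order as CPM per kilobase of exon. In DBA/2J the order was Ugcg at 27.7 ± 6.90, St3gal5 at 8.96 ± 1.00, St8sia1 at 5.14 ± 0.0831, B4galnt1 at 4.29 ± 0.924, B3galt4 at 1.86 ± 0.150, Neu3 at 0.522 ± 0.0386 and St8sia5 at 0.0364 ± 0.00735 (SD, n = 3). St8sia1 and B4galnt1 were the only neighbours in this order whose pools overlapped. In Gpnmb+ the same scale gave Ugcg 18.4 ± 2.75, St3gal5 between 5.59 and 6.42, B4galnt1 3.98 ± 0.289, B3galt4 2.32 ± 0.713, St8sia1 1.33 ± 0.0257, Neu3 0.493 ± 0.0709 and St8sia5 0.0301 ± 0.0149 (SD, n = 2). No neighbours in this order overlapped in Gpnmb+. St8sia1 thus moved from the fifth place in Gpnmb+ to the third in DBA/2J, and the other 6 kept their order among themselves. With the length of the longest transcript in place of all exons, B4galnt1 stood above St8sia1 in DBA/2J.

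**Figure D3:**
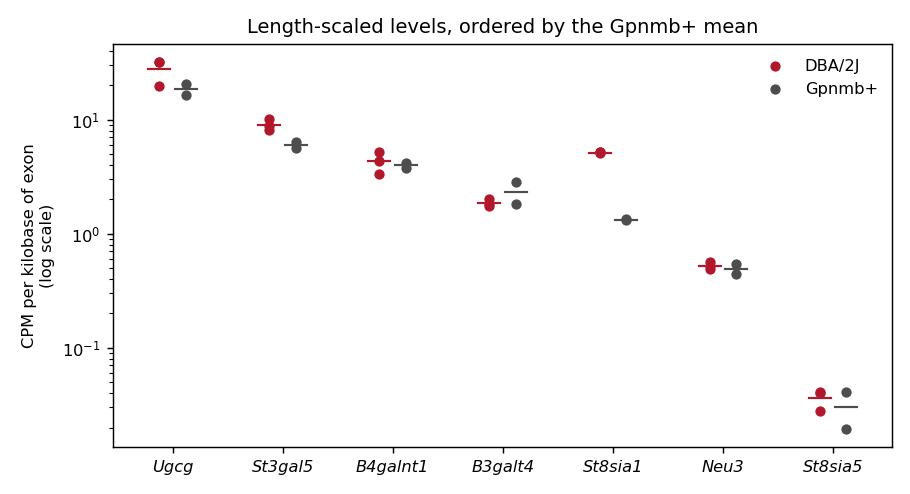
CPM per kilobase of exon for the 7 enzymes on a log axis, ordered by the Gpnmb+ mean, with 1 point per pool and a line at each group's mean. St8sia1 lies near B4galnt1 in the DBA/2J pools and below both B3galt4 values in the Gpnmb+ pools.

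The ratio of St8sia1 to another enzyme in the same pool does not depend on the scaling between libraries. Per kilobase, the ratio of St8sia1 to B4galnt1, which competes with it for GM3, was 0.975, 1.18 and 1.56 in DBA/2J, and only 0.321 and 0.346 in Gpnmb+. The ratio to St3gal5, which supplies GM3, was 0.628, 0.584 and 0.520 in DBA/2J and 0.210 and 0.234 in Gpnmb+. Neither ratio overlapped between the groups. The mean log2 ratio differed by 1.87 for B4galnt1 and by 1.38 for St3gal5. Both ratios contain the value that chose St8sia1, so they are given as descriptions.

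The rest of the pathway was read from 62 further genes in 7 lists drawn up by function, of which 59 passed the count filter. None was called by edgeR's quasi-likelihood test, and the lowest adjusted p was 0.0784, for Cers2. 14 of the 59 (23.7%) had an unadjusted p under 0.05, 11 higher and 3 lower, against 15.9% of all genes. The groups did not overlap for 37.3% of the 59, beside 34.5% of all genes. The median log2 fold change was 0.07.

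Of the 17 genes of ceramide synthesis and transfer, 11 had a higher and 6 a lower fitted level, and the median log2 fold change was 0.03. Cers2, the ceramide synthase of very long acyl chains, was at 188, 175 and 176 CPM in DBA/2J and at 132 CPM in both Gpnmb+ pools. The log2 fold change was 0.44 (edgeR adjusted p = 0.0784). Cers4, another ceramide synthase, was at 73.6, 82.7 and 95.4 CPM against 57.5 and 52.2 CPM, a log2 fold change of 0.61 with an edgeR adjusted p of 0.104. DESeq2's Wald test called Cers4, with an adjusted p of 0.00214. Both genes had groups that did not overlap. Sptlc3, a subunit of serine palmitoyltransferase, had the log2 fold change of 1.06 through a single DBA/2J pool at 5.63 CPM, while the other four pools lay between 1.39 and 2.00 CPM. The lactosylceramide synthases B4galt5 and B4galt6 each had a log2 fold change of 0.24, with edgeR adjusted p of 0.309 and 0.435. B4galt5 did not overlap between groups, at 43.2 to 51.1 CPM in DBA/2J and 39.3 to 40.7 CPM in Gpnmb+.

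Among 10 sialyltransferases that can cap gangliosides and other glycans, 7 had a higher and 3 a lower fitted level. St3gal4 was at 50.9, 68.1 and 53.7 CPM in DBA/2J, beside 69.5 and 96.5 CPM in Gpnmb+, with a log2 fold change of -0.53 (edgeR adjusted p = 0.255). St6galnac5, which forms alpha-series gangliosides, differed through 1 Gpnmb+ pool at 2.13 CPM beside 0.466 to 0.697 CPM elsewhere. St6galnac4 had a log2 fold change of 0.33, with 17.5 to 18.1 CPM in DBA/2J above 13.7 and 14.6 CPM in Gpnmb+ (edgeR adjusted p = 0.216). Of the 3 other St8sia genes tested, which act mainly on glycoproteins, St8sia6 was lower in every DBA/2J pool, at 138, 182 and 147 CPM against 208 and 238 CPM. Its log2 fold change was -0.52 (edgeR adjusted p = 0.164). St8sia2, a polysialyltransferase, was higher in every DBA/2J pool, at 4.97, 5.17 and 6.70 CPM against 4.08 and 4.42 CPM (log2 fold change 0.40, edgeR adjusted p = 0.382). St8sia4, the other polysialyltransferase, overlapped, with a log2 fold change of 0.01. Neither these 3 nor St8sia5 were called by edgeR.

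Of the 6 tested genes on other branches from lactosylceramide or its precursors, 4 had a higher and 2 a lower fitted level. B3gnt5, which starts the lacto series, was at 4.34, 1.91 and 3.81 CPM in DBA/2J, beside 1.34 and 1.90 CPM in Gpnmb+. The groups nearly met, and its log2 fold change of 1.05 came with an edgeR adjusted p of 0.287. B3galnt1, which builds globoside, had a log2 fold change of 0.41 (edgeR adjusted p = 0.184) and Gal3st1, the sulfatide sulfotransferase, one of -0.43 (edgeR adjusted p = 0.570). Of 7 tested genes for the supply and O-acetylation of sialic acid, 2 had a higher and 5 a lower fitted level. The median log2 fold change was -0.26. The 2 higher ones were the O-acetylation genes Casd1 and Siae, with log2 fold changes of 0.13 and 0.08, and the 5 lower ones were the supply genes. Cmas, which makes the donor CMP-sialic acid, was at 94.2, 142 and 98.9 CPM in DBA/2J and at 122 and 209 CPM in Gpnmb+ (log2 fold change -0.57, edgeR adjusted p = 0.377). Slc35a1, which carries this donor into the Golgi, and Gne, which starts sialic acid synthesis, had log2 fold changes of -0.36 and -0.28 (edgeR adjusted p = 0.557 and 0.290).

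The breakdown list, mostly of lysosomal enzymes and their activators, had 11 genes with a higher and 3 with a lower fitted level among 14 tested, and a median log2 fold change of 0.16. For 7 of the 14 all DBA/2J values lay above the Gpnmb+ values, and for 1 they lay below, beside 17.3% of all genes that were apart and higher and 34.5% apart in either direction. Psap, the precursor of the saposin activators, was at 2721, 3192 and 2735 CPM in DBA/2J and at 2163 and 2252 CPM in Gpnmb+ (log2 fold change 0.39, edgeR adjusted p = 0.242). Glb1, the lysosomal beta-galactosidase, was at 26.7, 27.1 and 26.3 CPM against 23.8 and 18.7 CPM (log2 fold change 0.33, edgeR adjusted p = 0.290). Neu2, a cytosolic sialidase, stayed under 1 CPM in all pools, with a log2 fold change of -0.56 (edgeR adjusted p = 0.558).

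St8sia1 lies on the chromosome that carries Gpnmb, 93.7 Mb away from it. St3gal5 lies on the same chromosome, 23.0 Mb from Gpnmb. Of 23 genes within 500 kb of St8sia1, 12 were tested and none was called by edgeR's quasi-likelihood test, beside 0.796% of all genes. No call in so few genes is near that share. The genes on its sides include Cmas, 45.8 kb away, and C2cd5, 46.5 kb away, which had a log2 fold change of 0.10 (edgeR adjusted p = 0.713). An antisense transcript, Gm7457, overlaps St8sia1. It was counted 6, 2 and 11 times in DBA/2J, and 2 times and 1 time in Gpnmb+ (log2 fold change 2.16, edgeR adjusted p = 0.348). Whether the counting used strand is not given in the sources used here, so reads of such pairs may be shared, although these counts are small beside the 605 to 2198 of St8sia1.

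Across the 5 pools, the genes whose profile lay closest to that of St8sia1 were Mlc1, Fezf2, Dlgap2, Csdc2 and S1pr3. Likeness was the root mean square distance of log2 CPM (prior count 2) after centring each gene, over 13890 genes. This distance contains the group difference that chose St8sia1, so it is given as a description. The 5 genes had log2 fold changes of 1.72 to 2.07, beside 1.95 for St8sia1. Mlc1, a membrane protein of astrocytes and related glia, was at a distance of 0.0952, with 57.0, 63.8 and 57.9 CPM in DBA/2J and 15.2 and 13.2 CPM in Gpnmb+. Fezf2, a transcription factor of developing forebrain, was at 0.104, with 3.42, 3.61 and 4.17 CPM against 1.01 and 0.838 CPM. S1pr3, a receptor for sphingosine 1-phosphate, was at 0.140, with 52.3, 54.1 and 47.0 CPM against 16.3 and 12.8 CPM. Among the enzymes themselves, St3gal5 at 0.68 and Ugcg at 0.73 were closest and B3galt4 at 1.11 was farthest.

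**Figure D4:**
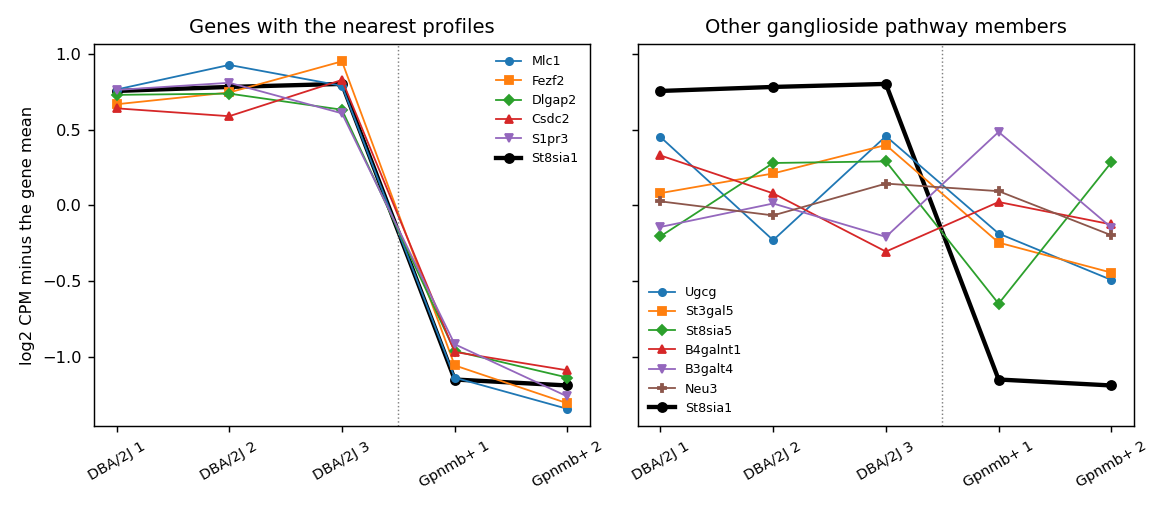
Log2 CPM minus each gene's mean in the 5 pools, with 1 line per gene, for St8sia1 with its 5 nearest genes (left) and with the other 6 enzymes (right). The nearest genes follow St8sia1 at distances of 0.0952 to 0.140, and the other enzymes lie closer to 0.

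Markers of the nonpigmented ciliary epithelium were higher in DBA/2J, as St8sia1 was, while other marker lists differed in their direction. The summed level of 8 markers of the nonpigmented ciliary epithelium was 971, 1108 and 1243 CPM in DBA/2J and 384 and 223 CPM in Gpnmb+, and all 8 were higher in every DBA/2J pool. edgeR called 3 of them higher (Col9a1, Col9a2 and Six6). Of all genes, 17.3% were apart and higher and 0.502% were called higher, and these markers were chosen with earlier results of the same libraries known. St8sia1 per 1000 CPM of these markers was 49.1, 43.8 and 39.6 in DBA/2J, and 33.1 and 55.4 in Gpnmb+. The groups overlap in this ratio. Per 1000 CPM of inner retina and glia markers, St8sia1 was 312, 256 and 244 in DBA/2J, and 110 and 75.6 in Gpnmb+. Per 1000 CPM of Schwann cell markers it was 292, 227 and 264, and 44.8 and 36.7. Neither of these latter ratios overlapped between the groups. Each of the ratios to marker sums contains the value that chose St8sia1, so they are given as descriptions. Between the Gpnmb+ pools the sum of the nonpigmented ciliary epithelium markers differed 1.72-fold, while St8sia1 was 12.7 and 12.4 CPM. The part of these cells in the St8sia1 difference was not tested.

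**Figure D5:**
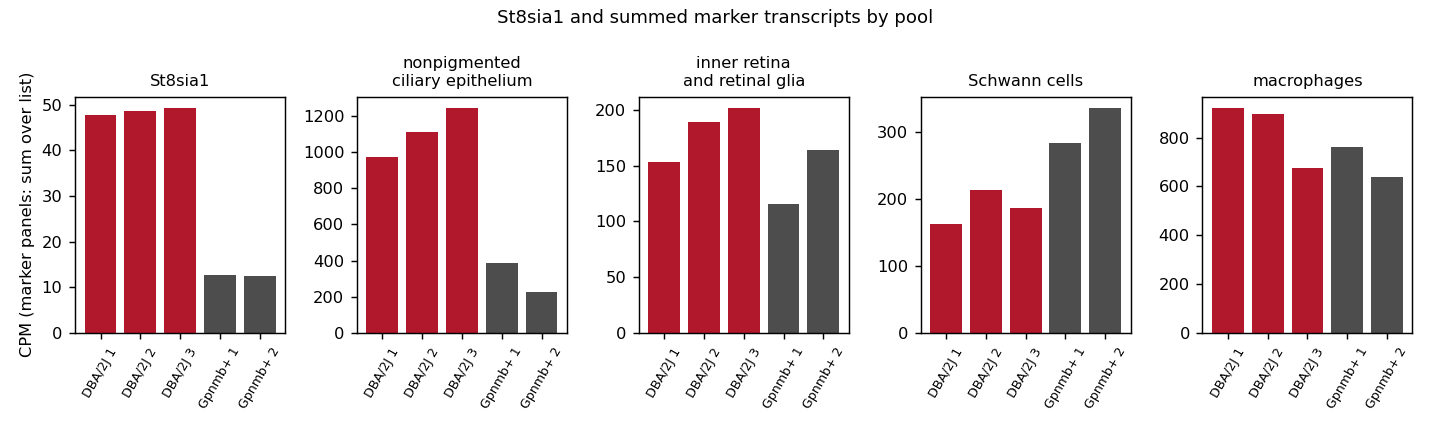
CPM of St8sia1 and summed CPM of 4 marker lists, with 1 bar per pool (DBA/2J in red, Gpnmb+ in grey) and axes that start at 0. Nonpigmented ciliary epithelium markers are higher in every DBA/2J pool (971 to 1243 CPM) than in the Gpnmb+ pools (223 to 384 CPM), and Schwann cell markers run the other way.

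Other marker lists were read in the same way, and their part was likewise not tested. Inner retina and glia markers summed to 153 to 202 CPM in DBA/2J and 115 to 164 CPM in Gpnmb+. Schwann cell markers summed to 163 to 214 and 284 to 337 CPM, with 6 of 7 apart and lower and 2 called lower. Of all genes, 34.5% were apart in either direction, of which the part apart and higher was 17.3% of all genes, and 0.294% were called lower. The 5 trabecular meshwork markers were all present and summed to 4056 to 5012 CPM in DBA/2J and 2625 to 3304 CPM in Gpnmb+. This higher sum was carried by 1 marker. The other 4 had a lower fitted level, and 1 of them (Edn3) was called lower. The sums for pigment cells, photoreceptors, macrophages, T cells, endothelium, smooth muscle, corneal stroma and lens overlapped between the groups, although some single markers in them did not, and edgeR called 1 of these (Slc45a2, lower). Skeletal muscle markers summed to 199 to 464 CPM in DBA/2J and 123 to 190 CPM in Gpnmb+, higher in DBA/2J without overlap. Corneal epithelium markers summed to 3414 to 6289 and 6140 to 8023 CPM, which overlapped. Y-linked genes summed to 159, 199 and 66.2 CPM in the DBA/2J pools and to 0.0394 and 0.102 CPM in the Gpnmb+ pools, so the sex make-up of the pools differed with genotype and the 2 cannot be told apart in these data. Among the DBA/2J pools, St8sia1 stayed between 47.7 and 49.3 CPM while the Y-linked sum varied from 66.2 to 199 CPM. All of these pools held Y-linked RNA, and the part of sex in the St8sia1 difference was not tested.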

How the data were processed

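Per the labels and the study's methods, mRNA libraries (KAPA mRNA HyperPrep, paired-end) were trimmed with fastp and aligned with STAR to GRCm39 with Ensembl 110 annotation. The authors deposited unnormalized gene counts, and the counting tool and strand setting are not given in the sources used here. Samples were grouped by the labels as DBA/2J (n = 3 pools) or Gpnmb+ (n = 2 pools). Counts were tested with edgeR 4.0.16 (quasi-likelihood, trimmed mean of M-values, Benjamini-Hochberg adjustment over all 19713 genes with at least 10 counts in 1 pool), and a call needed an adjusted p no higher than 0.05 with a fold change of 1.5 or more. Alternatives used DESeq2 1.42.0, ashr 2.2.63 and limma 3.58.1, other filters, a replicate block, and leaving out each pool. Exon lengths and coordinates came from GENCODE vM39 (56323 of 56941 identifiers matched). The promoter came from RefSeq (GRCm38.p6) and was placed on GRCm39 by exact match. The members, gene lists and markers were chosen with earlier results of these data known. The text names all 7 enzymes, up to 3 genes of each pathway list by absolute log2 fold change, and the 5 nearest profiles. The genes beside St8sia1 and its ratio to ciliary markers were chosen after the values were seen. Scripts were tested on simulated data. Pools with the same number deviated together only weakly (correlations 0.28 and 0.25 in 2 pairs), and no label ties them. The result for 1 marker gene is not reported here.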

Additional observations from a re-analysis of the deposited data

How the results depend on the processing

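Every alternative fit on all 5 pools kept the direction of each enzyme's fitted log2 fold change, and none called any of the 6 enzymes other than St8sia1, which was not tested. St8sia1 ranged from 1.93 to 1.97. Leaving out each pool in turn gave 1.93 to 1.97 for St8sia1, 0.48 to 0.68 for St3gal5, 0.45 to 0.78 for Ugcg, -0.050 to 0.26 for B4galnt1, -0.60 to 0.039 for B3galt4, -0.16 to 0.89 for St8sia5 and -0.056 to 0.24 for Neu3. The last 4 changed direction, B4galnt1 without DBA/2J pool 1, B3galt4 and St8sia5 without Gpnmb+ pool 1, and Neu3 without Gpnmb+ pool 2. With the replicate number as a block, the values were 1.94 for St8sia1, 0.49 for St3gal5, 0.45 for Ugcg, 0.26 for B4galnt1 (0.11 without the block), -0.24 for B3galt4, 0.22 for St8sia5 and 0.03 for Neu3 (0.08 without it), and the block changed no call among the enzymes or the pathway lists. Moderation with ashr shrank Ugcg to 0.25 and B3galt4 to -0.06. Among the 59 further pathway genes, calls went from 0 to 1 (Cers4) under DESeq2's Wald test and to 2 (Cers4 and B3gnt5) at an unadjusted p with the same fold minimum; the cause was not tested. Over all genes, 157 calls became 927 with DESeq2's Wald test, 734 after ashr, 360 with no count filter and 220 with the block. They became 6, 1 and 17 without DBA/2J pool 1, 2 or 3, and 217 and 2 without Gpnmb+ pool 1 or 2. Low counts limit St8sia5 most.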
